A study of Mus musculus with 8 samples.

Results

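Tetraspanins are small proteins that cross the membrane several times and gather partner proteins, among them integrins, proteases, immune receptors and MHC class II, into patches of the membrane. In leukocytes the family is known for organising adhesion and antigen presentation at the cell surface, and in endosomes for sorting cargo into lysosomes and released vesicles. A subgroup, TspanC8, escorts the surface protease Adam10 out of the endoplasmic reticulum. The members described here are the genes whose symbol is Tspan followed by a number, together with Cd9, Cd37, Cd53, Cd63, Cd81, Cd82 and Cd151, and they were chosen by symbol. Of 19938 genes on the arrays, 26 met this rule. RefSeq lists 27 such genes in the mouse, and Tspan7 is not analysed here because no probe set was paired with it alone. Each of the 26 genes had 1 probe set.

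Myeloid dendritic cells had been sorted out of bone marrow, and their comparison group, labelled classical dendritic cells, out of spleen, which gave 4 arrays in each group. The surface markers of either sort are not known here. Each of 4 mice gave 1 sample of either tissue. All mice, in both groups alike, were 8 weeks old and had the genotype CX3CR1-gfp/+, in which a fluorescent reporter sits in 1 copy of the fractalkine receptor gene. The arrays were Affymetrix mogene 1.0 ST, and values are the authors' linear intensities. Array medians lay between 125 and 135. Differences are log2 bone marrow minus spleen from limma, with its standard error (SE).

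The labelled cell type was set against its markers. Of 12 classical dendritic cell genes, 8 were lower in bone marrow and 0 higher in limma (also 0 at an unadjusted p under 0.05), with summed intensities of 28336 to 30820 in bone marrow and 36791 to 38604 in spleen. The largest falls were in Xcr1 (141 in bone marrow against 1580 in spleen), Esam (84.9 against 434) and Cd4 (290 against 1326). H2-Ab1, a class II chain and 1 of the 4 that did not pass, averaged 15354 in bone marrow and 14678 in spleen. It is the brightest of the 12 and weighs heavily on the sums. Markers of other cells moved with the groups too. In bone marrow 8 of 9 macrophage genes were higher, at a summed intensity of 21610 to 31088 against 3496 to 4176 in spleen. All 8 neutrophil genes were higher, at a sum of 19789 to 27198 in bone marrow and 1262 to 1553 in spleen, and 4 of 6 monocyte genes were higher, at 15223 to 17144 and 4965 to 6014. Of 7 B cell genes, 4 were lower and 1 was higher (1511 to 1655 in bone marrow, 3137 to 3621 in spleen). Of 5 platelet genes 1 was higher, with sums of 874 to 2992 in bone marrow and 633 to 2492 in spleen. Counts higher and lower were 5 and 0 of 7 genes of basophils, mast cells and eosinophils, 0 and 4 of 6 T and NK cell genes, 1 and 3 of 5 plasmacytoid dendritic cell genes, and 2 and 1 of 7 stromal and endothelial genes. In sorted bulk samples, fewer cells of a type and less RNA per cell cannot be told apart, and the part of these markers in the differences below was not tested.

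Tetraspanin genes differed between the tissues in both directions. Of the 26 genes, 8 were higher in bone marrow and 8 lower at an adjusted p under 0.05, and 10 did not pass. Over all genes tested, 18.5% were called, 9.26% higher and 9.2% lower, against 61.5% of the tetraspanins. Dim genes weigh on that share. With the dimmest 40% left out, 1740 of 11963 genes were higher and 1740 lower, against 8 and 8 of 20 tetraspanins. The arrays of the groups did not overlap in 17 of the 26 genes, where 20.6% of all genes did not overlap. Bone marrow was above spleen in 9 of the 17 (10.4% of all genes) and below it in 8 (10.2%). The median log2 difference was 0.09 over the tetraspanins and -0.01 over all genes, while the median size of the difference without its sign was 0.36 and 0.10. At least 2-fold differences that passed the threshold were seen for 3 members, Tspan32, Cd63 and Tspan2, that is 11.5% of them, against 3.52% of all genes.

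**Figure D1:**
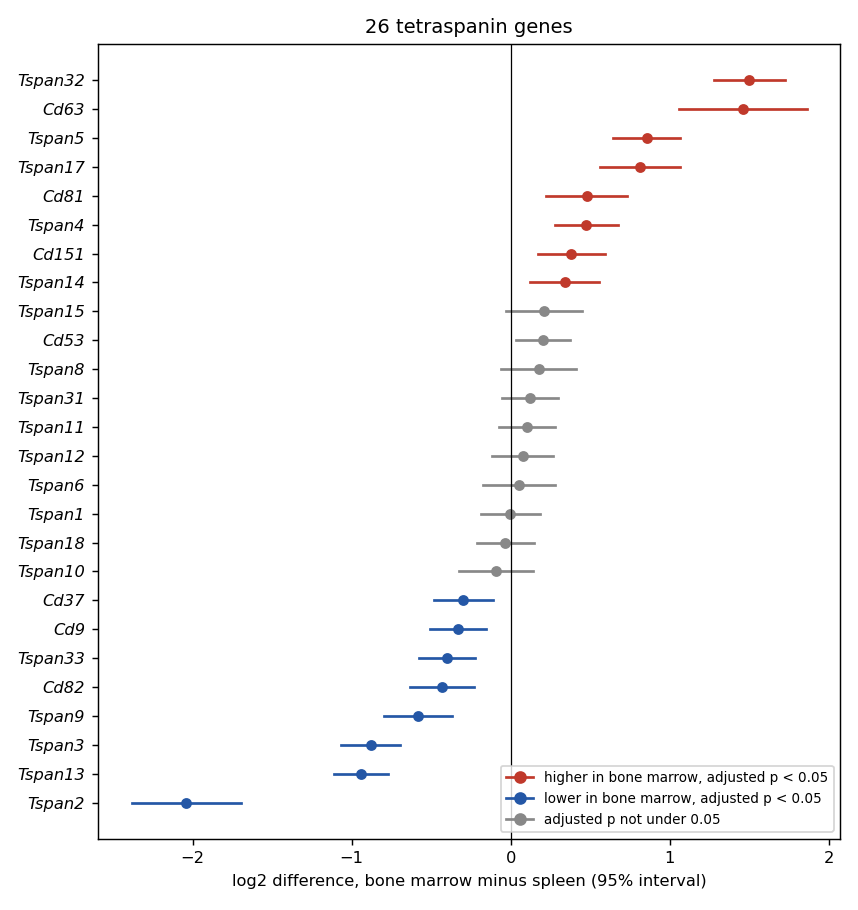
Log2 difference (horizontal axis, bone marrow minus spleen) of each of the 26 tetraspanin genes, with limma's 95% interval as a line. Tspan32 and Cd63 lie farthest to the right at 1.50 and 1.46, Tspan2 farthest to the left at -2.04, and 10 genes in grey did not pass the threshold.

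Tspan32, a tetraspanin of blood cells that restrains T cell proliferation in mice, had intensities of 476, 500, 436 and 500 in bone marrow replicates 1 to 4, against 151, 182, 149 and 199 in spleen replicates 1 to 4. Every bone marrow array stood above every spleen array, with a gap wider than the spread in either tissue. The gene was 2.83-fold higher in bone marrow (log2 difference 1.50 ± 0.10 SE, n = 4 per group, limma adjusted p = 3.4e-07). Within the 4 mice the log2 difference ranged from 1.33 to 1.66.

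Cd63, the tetraspanin of late endosomes, lysosomes and secretory granules, had 3380, 4546, 3878 and 2213 in bone marrow, against 1148, 1176, 1108 and 1543 in spleen. All bone marrow arrays were above all spleen arrays, but bone marrow replicate 4 was the lowest of its group and spleen replicate 4, from the same mouse, the highest of the other. The gene was 2.75-fold higher (1.46 ± 0.19, adjusted p = 8.1e-05), with differences within mice from 0.52 to 1.95, the widest range among the members that rose. The 4 bone marrow arrays took the same order in Cd63 as in the summed macrophage markers, which were 23075, 31088, 27407 and 21610 in replicates 1 to 4. In spleen, where that sum was 4044, 3506, 4176 and 3496, Cd63 took the reverse of its order, though replicates 2 and 4 nearly tied in the sum. In bone marrow the sums of the other marker lists took other orders than Cd63. Those of neutrophil markers were 25448, 19789, 27198 and 25475, and those of monocyte markers 15303, 17144, 15223 and 16516. None of these orders was tested.

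Tspan2, a gene known from oligodendrocytes and neurons, showed the widest difference of the family, and in the other direction. It had 153, 148, 118 and 181 in bone marrow, against 583, 579, 838 and 492 in spleen. No bone marrow array came near the lowest spleen array. Tspan2 was 4.12-fold lower in bone marrow (-2.04 ± 0.16, adjusted p = 1.0e-06), and its difference ranked 65 from the most negative among the 19938 genes. Within mice the difference ran from -2.83 to -1.44, its extreme being the mouse of replicate 3.

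The promoters of these 3 genes are shown because they differed at least 2-fold. Each sequence is the 250 bases before 1 transcript start in a table of RefSeq promoters (GRCm38.p6), 5′ to 3′ on the gene's strand, which was the plus strand in each case. For Tspan32 and Cd63 the table holds 1 window each. The transcript start that follows it lies inside the RefSeq span of the gene and not at its outer end. Of 2 windows for Tspan2, the one before the outer end is shown. Capitals mark matches to GAGGAA, the core of the motif bound by the myeloid factor PU.1, or its reverse complement TTCCTC.
Tspan32, chr7:143004796-143005045: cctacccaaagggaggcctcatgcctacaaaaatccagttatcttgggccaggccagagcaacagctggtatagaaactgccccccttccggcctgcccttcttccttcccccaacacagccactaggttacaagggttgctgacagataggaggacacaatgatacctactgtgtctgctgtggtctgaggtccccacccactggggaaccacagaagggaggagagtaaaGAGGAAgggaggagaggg
Cd63, chr10:128909095-128909344: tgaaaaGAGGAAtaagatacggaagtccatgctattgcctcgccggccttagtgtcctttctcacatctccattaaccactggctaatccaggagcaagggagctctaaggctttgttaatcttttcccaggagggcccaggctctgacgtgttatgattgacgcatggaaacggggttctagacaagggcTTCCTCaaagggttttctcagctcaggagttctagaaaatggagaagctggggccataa
Tspan2, chr3:102734520-102734769: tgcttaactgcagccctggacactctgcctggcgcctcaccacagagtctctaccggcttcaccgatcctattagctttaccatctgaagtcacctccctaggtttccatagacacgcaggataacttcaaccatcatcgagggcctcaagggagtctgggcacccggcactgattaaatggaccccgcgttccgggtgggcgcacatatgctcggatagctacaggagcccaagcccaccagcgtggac

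The Tspan32 window held 1 match and the Cd63 window 2, and the Tspan2 window held none. None of the 3 windows held the GC box GGGCGG, the TATA box TATAAA or the E-box CACGTG on either strand, and the motifs found did not overlap. Their GC content was 55.6% for Tspan32, 48.8% for Cd63 and 57.2% for Tspan2, with 1, 6 and 12 CpG dinucleotides, where the median GC content of all 32851 windows was 52.4%. RefSeq promoters were found for 25 members in 35 windows, and there was none for Tspan18. The PU.1-type motif lay in 10 of these 35 windows and in 23.3% of all windows, the GC box in 15 and 32.7%, the E-box in 2 and 6.02%, and the TATA box in 1 and 12.4%. The PU.1-type motif was present for 3 of the 8 members that rose, 3 of the 8 that fell and 3 of the 9 others. The GC box was present for 6 of 8, 6 of 8 and 1 of 9. In these counts a gene has a motif if any of its windows does, so the shares of windows are not their background. Tspan1, Tspan6, Tspan8, Tspan12 and Tspan15, among the 9 others, are dim genes. The contrast was not tested. A match is a string of letters and not evidence that a factor binds there.

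Of the TspanC8 subgroup, whose proteins carry Adam10 to the surface, 3 of 6 genes rose in bone marrow and 1 fell. Of all 26 tetraspanins 30.8% rose and 30.8% fell, and of all genes 9.26% and 9.2%. The median log2 difference of the 6 was 0.27. Tspan5 had 561, 620, 495 and 595 in bone marrow, against 299, 302, 362 and 292 in spleen. The groups stood clear of each other, and the gene was 1.81-fold higher (log2 difference 0.86 ± 0.10 SE, n = 4 per group, limma adjusted p = 3.1e-05). Tspan17, its close relative, had 285, 331, 268 and 322 in bone marrow, against 148, 188, 151 and 204 in spleen. Again no arrays overlapped, and the difference was nearly that of Tspan5 (0.81 ± 0.12, 1.76-fold, adjusted p = 0.00022).

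Tspan14 was the third TspanC8 gene to rise, by 0.34 ± 0.10 (geometric means 1409 in bone marrow against 1113 in spleen, adjusted p = 0.031). Its arrays did not overlap, at 1331 to 1474 in bone marrow and 908 to 1246 in spleen. The call was lost on leaving out bone marrow replicate 1 (adjusted p = 0.0564), 2 (0.0816) or 4 (0.074) or spleen replicate 4 (0.0639), and with median centring (0.056). Tspan33, which is expressed in erythroid cells and activated B cells, went the other way (-0.40 ± 0.08, 795 in bone marrow against 1051 in spleen, adjusted p = 0.0031). In the same arrays 4 of 5 erythroid markers were higher in bone marrow, with a summed intensity of 990 to 1469 against 407 to 595. Of 7 B cell markers 4 were lower and 1 higher, where 9.26% of all genes were higher and 9.2% lower. Tspan15 (0.21, 95% interval -0.03 to 0.45) and Tspan10 (-0.09, -0.33 to 0.14) did not pass.

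Adam10 itself was 1.37-fold higher in bone marrow (0.46 ± 0.08, adjusted p = 0.00095), with 1263, 1387, 1232 and 1366 in bone marrow against 982, 897, 1017 and 926 in spleen. Of 10 genes for proteins that Adam10 cleaves, 7 were higher and 2 lower, where 9.26% of all genes were higher and 9.2% lower. With the dimmest 40% of genes left out, 1740 of 11963 were higher and 1740 lower. The list was chosen with earlier results of these data known, so its count cannot be read as an independent result. The median log2 difference of the 10 was 0.48, and that over all genes was -0.01. Lrp1, an endocytic receptor, was 3.40-fold higher (1.77 ± 0.10, adjusted p = 4.8e-08) and Notch1 2.80-fold higher (1.49 ± 0.13, adjusted p = 2.3e-06). Cxcl16, a chemokine tethered to the membrane, was higher by 0.65 ± 0.08. The lower genes were Notch4 (-0.64 ± 0.08, adjusted p = 5.3e-05) and Fcer2a, the low-affinity IgE receptor CD23 of B cells (-0.52 ± 0.13, adjusted p = 0.013). The arrays of Fcer2a overlapped, at 113 to 152 in bone marrow and 150 to 232 in spleen. The arrays measure transcripts, and cleavage was not measured.

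**Figure D2:**
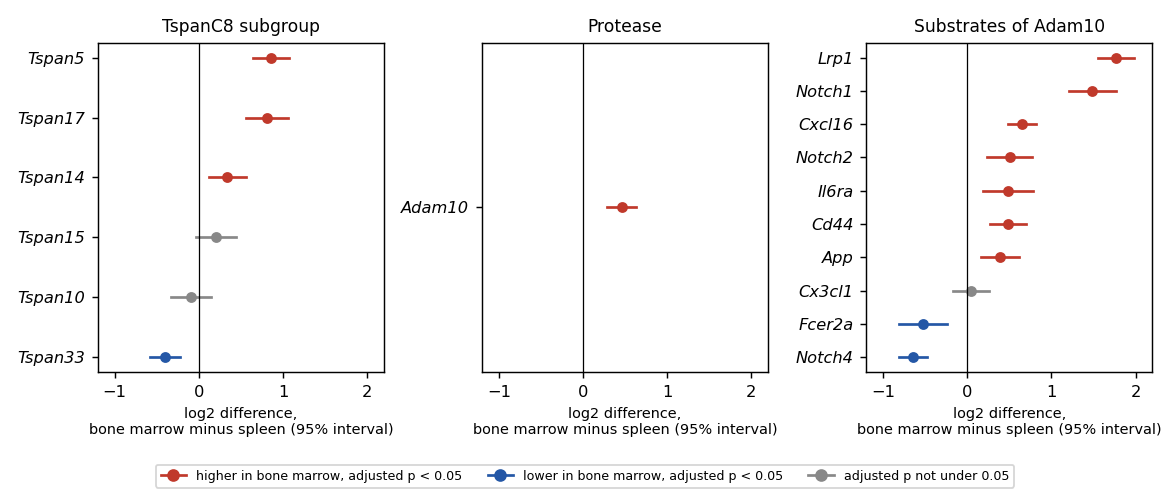
Log2 difference, bone marrow minus spleen, with the 95% interval, for the TspanC8 genes (left), Adam10 (middle) and genes of proteins cleaved by Adam10 (right). Tspan5, Tspan17 and Tspan14 lie right of 0 with Adam10, and Tspan33 lies left of it. Of the 10 substrate genes, a list chosen with earlier results of these data known, 7 were higher and 2 lower, against 9.26% and 9.2% of all genes.

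Among the 7 tetraspanins known as leukocyte CD antigens, 3 were higher in bone marrow (Cd63, Cd81 and Cd151), 3 were lower (Cd82, Cd9 and Cd37), and Cd53 did not pass. Over all 26 tetraspanins, 30.8% were higher and 30.8% lower, and over all genes 9.26% and 9.2%. Cd81, a tetraspanin expressed by most cells, had 2568, 3507, 3105 and 2508 in bone marrow, against 1891, 1925, 2166 and 2372 in spleen. The groups were separate but close, since the lowest bone marrow array lay just above the highest spleen array. The gene was 1.39-fold higher (0.48 ± 0.12, adjusted p = 0.011). As with Cd63, the order of the 4 bone marrow arrays was that of the macrophage marker sum and of no other marker list. In spleen the order differed, with replicate 4 highest in Cd81 and, nearly tied with replicate 2, lowest in the sum. Of the other members that rose, Tspan4 took the bone marrow order of the sum too. Tspan32, Tspan5, Tspan17, Tspan14 and Cd151 did not. An order of 4 arrays can match by chance, and the match was not tested.

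**Figure D3:**
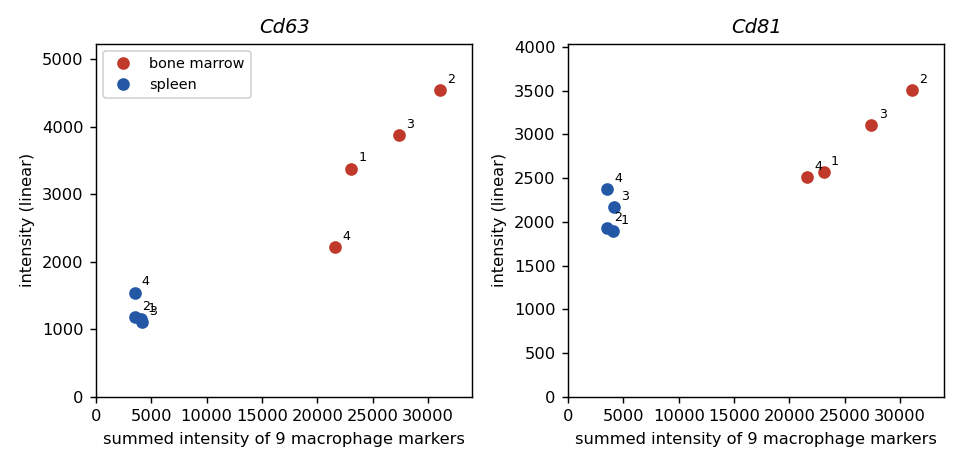
Linear intensity of Cd63 (left) and Cd81 (right) against the summed intensity of 9 macrophage markers, 1 point per array, with the replicate number beside it. In the bone marrow arrays (red) both genes took the order of the marker sum, from 21610 in replicate 4 to 31088 in replicate 2. The spleen arrays (blue), which lie together at 3496 to 4176, did not. Tspan4, not shown, took that order in bone marrow too, while the sums of the other marker lists did not. The match was not tested.

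Cd151, the partner of laminin-binding integrins, had 234, 289, 294 and 268 in bone marrow, against 191, 193, 226 and 224 in spleen. These did not overlap, though bone marrow replicate 1 lay close to the spleen arrays. The difference was 0.38 ± 0.10 (1.30-fold, adjusted p = 0.014). Cd53, found on nearly all leukocytes, had 6370, 6028, 6547 and 6339 in bone marrow, against 5170, 5317, 5493 and 6019 in spleen. Its groups did not overlap either, but replicate 4 of spleen almost met replicate 2 of bone marrow and the difference did not pass (0.20 ± 0.08, 95% interval 0.04 to 0.37, adjusted p = 0.098). It passed without spleen replicate 4 (adjusted p = 0.0482), with array weights (0.0477) and with an intensity trend (0.0263).

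Cd82, a metastasis suppressor that slows cell migration, had 3063, 3742, 3236 and 3920 in bone marrow, against 4717, 4745, 4955 and 4370 in spleen. All bone marrow arrays were below all spleen arrays, and the gene was 1.35-fold lower (-0.43 ± 0.09, adjusted p = 0.0047). Cd9, which is needed for sperm and egg to fuse and which binds class II molecules on dendritic cells, had 1005, 923, 995 and 1040 in bone marrow, against 1320, 1154, 1184 and 1342 in spleen. It too was lower without overlap (-0.33 ± 0.08, 1.26-fold, adjusted p = 0.011).

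Cd37, a leukocyte tetraspanin that holds the lectin dectin-1 at the surface, had 1301, 1109, 1182 and 1349 in bone marrow, against 1623, 1447, 1490 and 1502 in spleen. No arrays overlapped and it was 1.23-fold lower (-0.30 ± 0.08, adjusted p = 0.026). That call was lost without bone marrow replicate 2 (adjusted p = 0.0844) or 3 (0.0743) or spleen replicate 1 (0.0814). H2-Aa and H2-Ab1, which encode the class II chains, and Cd74, their chaperone, did not pass, with log2 differences of 0.01, 0.07 and 0.04.

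The remaining members that fell, Tspan13, Tspan3 and Tspan9, stood clear of the spleen arrays in each sample. Tspan13 had 4035, 4620, 4384 and 4798 in bone marrow, against 8384, 8401, 8840 and 8561 in spleen. Its spleen arrays were the most alike of any member (SD 0.04 on the log2 scale), and it was 1.92-fold lower in bone marrow (-0.94 ± 0.08, adjusted p = 1.8e-06). Tspan3, required by acute myeloid leukaemia stem cells in mice, had 595, 657, 671 and 694 in bone marrow, against 1084, 1202, 1209 and 1329 in spleen. Its difference within the 4 mice was narrow, from -0.94 to -0.85, and it was 1.84-fold lower (-0.88 ± 0.09, adjusted p = 8.0e-06).

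Tspan9, which is abundant in platelets and megakaryocytes, had 282, 284, 226 and 255 in bone marrow, against 347, 391, 442 and 388 in spleen. It was 1.50-fold lower without overlap (-0.58 ± 0.10, adjusted p = 8.7e-04). The summed platelet markers, at 1193, 2155, 2992 and 874 in bone marrow and 635, 724, 633 and 2492 in spleen, took another order than Tspan9 in either tissue. Tspan4, which marks the migrasomes left behind by moving cells, was the last of the members that rose, with bone marrow arrays of 303 to 371 and spleen arrays of 226 to 270 (0.47 ± 0.09, 1.39-fold, adjusted p = 0.0023).

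**Figure D4:**
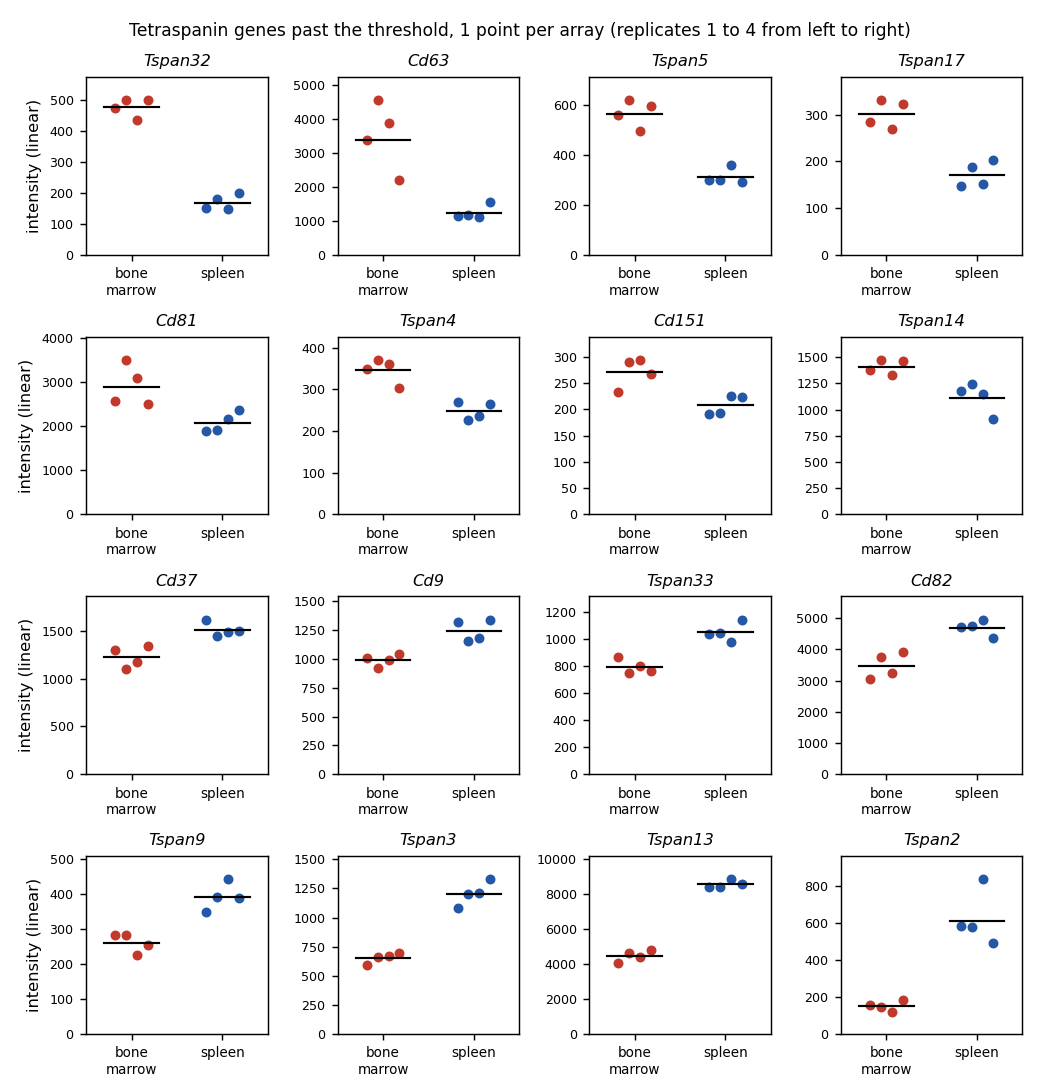
Linear intensity of the 16 tetraspanin genes past the threshold, 1 point per array, with bone marrow (red) left of spleen (blue) and the geometric mean as a line. In none of the 16 do the groups overlap, and Tspan2, for example, had bone marrow arrays at 118 to 181 and spleen arrays at 492 to 838.

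Apart from Cd53, 9 members did not pass, with log2 differences from -0.09 to 0.21 and adjusted p from 0.27 to 0.996. Tspan31, a gene first found amplified in sarcomas, averaged 2478 in bone marrow and 2281 in spleen (0.12, 95% interval -0.06 to 0.29). Tspan11 averaged 173 and 161 (0.10, -0.08 to 0.28) and Tspan10 114 and 121. The other 6, Tspan15, Tspan8, Tspan12, Tspan6, Tspan1 and Tspan18, had group means from 18.9 to 65.8 in either tissue. These 6 also fall among the dimmest 40% of genes on the arrays, and no detection call accompanies the intensities, so whether they lay above background is unknown.

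Close relatives within the family did not always move together. The log2 ratio of 2 genes within an array is set by their probes as well as their transcripts, so only its difference between the tissues is described. The ratio of Cd9 to Cd81 averaged -1.55 ± 0.30 in bone marrow and -0.74 ± 0.16 in spleen (SD, n = 4 each), without overlap. That of Tspan4 to Tspan9 averaged 0.41 ± 0.19 in bone marrow and -0.65 ± 0.24 in spleen, and that of Tspan14 to Tspan33 0.83 ± 0.15 and 0.08 ± 0.28, again without overlap. For 3 further pairs the arrays overlapped: Cd37 to Cd82 differed by 0.14 between the tissues, Tspan5 to Tspan17 by 0.04 and Cd151 to Tspan11 by 0.28. The first 3 pairs each join a gene that rose with a gene that fell, both without overlap. Their ratios therefore had to separate the groups and add nothing to the results of the single genes. No test was made on these ratios.

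**Figure D5:**
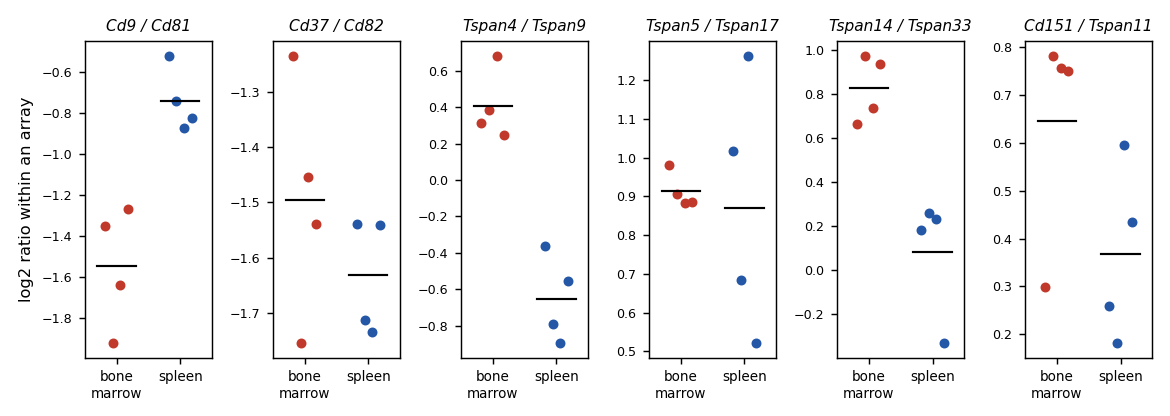
Log2 ratio of related tetraspanin genes within each array (vertical axes differ between panels and do not start at 0), with bone marrow (red) left of spleen (blue) and the group mean as a line. The ratios Cd9/Cd81, Tspan4/Tspan9 and Tspan14/Tspan33 separate the groups, which follows from their genes differing in opposite directions without overlap. The other 3 overlap.

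By RefSeq's order of genes (GRCm38.p6), 5 members lie on chromosome 7, of which 4 rose and 1, Cd37, fell. Of all 26 members 30.8% rose and 30.8% fell, and of all genes 9.26% and 9.2%. Tspan32 and Cd81 are neighbours with 0 protein-coding genes between them, and Cd151 and Tspan4 have 1 between them. Both pairs rose, though Tspan32 (1.50) moved farther than Cd81 (0.48). On chromosome 6, 3 of 5 members fell (Tspan9, Tspan33 and Cd9) and the other 2 did not pass. Tspan9 adjoins Tspan11 there, and Tspan18 adjoins Cd82 on chromosome 2, each with 0 coding genes between, and in both of these pairs 1 gene fell and the other did not pass. Neither a difference between chromosomes nor shared control of neighbours was tested.

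Genes for partner proteins of tetraspanins changed in both directions. Of 17 measured genes for membrane partners, 6 were higher and 5 lower in bone marrow, where 18.5% of all genes were called, with a median log2 difference of 0.04. Clec7a, which encodes dectin-1, the lectin that associates with Cd37 and Cd63, was higher by 0.97 ± 0.10 (3691 in bone marrow against 1885 in spleen, adjusted p = 1.6e-05). Igsf8 and Ptgfrn, immunoglobulin-family proteins that bind Cd9 and Cd81 directly, were higher by 0.63 ± 0.09 and 0.58 ± 0.15 (adjusted p = 0.00015 and 0.013). The bone marrow and spleen arrays of Ptgfrn overlapped, at 201 to 297 and 131 to 211.

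The lower partners with the largest fold were Cr2, Epcam and Ifitm1. Cr2 (CD21), a complement receptor, had a mean of 37.2 in bone marrow against 115 in spleen (-1.62 ± 0.12, adjusted p = 8.5e-07). B cell markers in the same arrays were mixed, 4 of 7 lower and 1 higher, against 9.2% and 9.26% of all genes. Epcam, an epithelial adhesion protein also found on dendritic cells, fell by 0.88 and Ifitm1, which binds Cd81, by 0.83 on the log2 scale (adjusted p = 3.7e-05 and 6.9e-04). Cr2 and Epcam are among the dimmest 40% of genes, so whether they lay above background in bone marrow is unknown and the size of their difference is uncertain. Ifitm1 moved against Cd81, Igsf8 and Ptgfrn in sign.

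Of 12 genes for the sorting of cargo into multivesicular bodies and their release, 2 were higher, 0 lower (also 0 at an unadjusted p under 0.05) and 10 did not pass in limma, close to the 18.5% of all genes that were called. The 2 were Sdcbp, which encodes syntenin, a protein that binds the tail of Cd63, and Sdc4, a syndecan that binds syntenin. Sdcbp had 2007, 2426, 2407 and 2367 in bone marrow, against 1169, 1373, 1508 and 1259 in spleen. These did not overlap (0.80 ± 0.10, 1.74-fold, adjusted p = 6.3e-05), and Sdc4 was higher by 0.67 ± 0.11. Of 4 genes of norrin signalling, in which Tspan12 acts in the retina, 2 were higher and 0 lower in limma (1 lower at an unadjusted p under 0.05). Over all genes, 9.26% were higher and 9.2% lower. The receptors Fzd4 and Lrp5 were higher by 0.98 ± 0.18 and 0.47 ± 0.11 (adjusted p = 0.0018 and 0.011), of which Fzd4 is among the dimmest 40% of genes, at 85.8 in bone marrow against 43.4 in spleen. The ligand Ndp (0.01) and the coreceptor Lrp6 (-0.24, adjusted p = 0.13) did not pass. Tspan12 itself, at 38.4 in bone marrow and 36.4 in spleen, did not pass (0.07, 95% interval -0.11 to 0.26). Of 4 tetraspanin genes with other names, Upk1a, Upk1b, Prph2 and Rom1, 0 passed in limma and 0 were under an unadjusted p of 0.05 (0.15 to 0.57), with 1 lower when spleen replicate 3 was left out.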

How the data were processed

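The deposited values are linear intensities, 1 for each array and probe set. The submitters' processing notes name Affymetrix Expression Console 1.4. The sources used here do not say how background, scaling and probe summaries were handled. RNA of sorted cells was amplified from very small inputs, per the labels' protocols, which can add spread between arrays.

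Of 35556 probe sets, 21789 had 1 symbol in the platform's annotation. Per gene the brightest was kept, which left 19938 genes. Intensities were taken to log2 and compared as bone marrow minus spleen with limma 3.58.1 in R 4.3.3 (lmFit and eBayes, no filter), with Benjamini-Hochberg adjustment over all genes and a threshold of 0.05. The fit was tested on simulated data. Intervals are limma's 95% intervals. The number of arrays limits the precision, and fold changes of dim genes are compressed by background. P-values measure the spread among 4 mice, with sorting and amplification.

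The description labels give same-numbered arrays 1 mouse, so the numbers pair the samples. Deviations of paired arrays from their group means correlated at 0.096, -0.088, -0.178 and -0.054 across genes. The labels state no test, so the main fit leaves the mouse out, and the mouse as a replicate block is an alternative.

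Every member is named. All 8 arrays are printed for members past the threshold with a log2 difference of at least 0.5 and for the CD antigens, and up to 3 partner genes per list and direction by fold. Adam10, H2-Aa, H2-Ab1, Cd74, Xcr1, Esam and Cd4 were named after their values were seen. The members, the partner and marker lists and the pairs were chosen with earlier results of these data known. A pair with Tspan7 was left out.

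Alternatives were quantile normalization, median centring, leaving out the dimmest 40% of genes, averaging probe sets, an intensity trend, array weights, the replicate block and leaving out each array. Promoter windows are from RefSeq (GRCm38.p6). Probe coordinates were not used here.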

Additional observations from a re-analysis of the deposited data

Results flagged for a closer look

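In 4 of the 52 sets of 4 arrays checked (26 genes in either tissue), 1 array stood apart from the other 3 by more than Dixon's 95% critical value for the gap over the range, and chance alone gives about 1 in 20 such sets. Tspan5 in spleen replicate 3 was 362, where the other spleen arrays lay between 292.3 and 301.8. Tspan31 in spleen replicate 4 was 2491, against 2194 to 2228 in the others. Tspan18 in spleen replicate 4 was 61.5, against 57.1 to 57.7. Tspan15 in bone marrow replicate 4 was 55.8, against 68.7 to 70.9. The Tspan5 array lay toward the bone marrow level, and the gene's call was kept without it; the other 3 genes did not pass the threshold.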

How the results depend on the processing

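Of the 16 tetraspanin calls, 14 were kept under all 15 alternatives, and the exceptions, Tspan14 and Cd37, kept their direction. Under the alternatives the count of members higher in bone marrow was 7 to 9 and of members lower 7 or 8, and all-gene counts stayed within 1.5 times. With the mouse as a replicate block the counts were again 8 and 8, and the block changed no member's call; Tspan14 came closest to the threshold (adjusted p = 0.0495). Among partner genes Itga4 (adjusted p = 0.101 with the replicate block) was lost and Vcam1 (0.0473) gained. Leaving out the dimmest 40% kept 20 members, all 16 called ones among them, and lowered the count of membrane partners lower in bone marrow to 3 of 15 and of Tspan12 partners higher to 1 of 2, since fewer genes were tested. Averaging probe sets leaves members as they are, each having 1.

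Signs turned only for members near 0 that passed in no setting, and the cause was not tested. Tspan1 (-0.0017 with all arrays) was 0.0066 with quantile normalization and 0.0096 with median centring. With 1 array left out it ranged from -0.0578 to 0.0542, Tspan10 from -0.170 to 0.0121, Tspan18 from -0.0735 to 0.0234 and Tspan6 from -0.0395 to 0.117. Dim members, which lack a detection call, have no bound on how far background compresses their differences. The alternatives for partner genes and lists were chosen after seeing the data.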
